A study of Mus musculus with 5375 samples.

Results

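Wnt2, Wnt2b, Wnt4, Wnt9a, Rspo3, Wls and Porcn were followed through the single-cell libraries of lung endothelial cells (ECs) and lung-seeded tumor cells (TCs). They comprise 4 Wnt ligands, the Wnt amplifier Rspo3 and a pair of genes that Wnt-producing cells need for secretion. The 7 genes were taken by name from 35256 genes shared by the EC and TC tables. All animals were wild-type female BALB/c mice. 4T1-GFP cells, a BALB/c mammary carcinoma line that carries green fluorescent protein and had been stained with CellTrace dye, were given through the tail vein. Day 0 ECs came from animals without TCs (4 animals), and ECs were sorted 1.5 and 3.5 days after injection (3 animals each) as CD45-, PDPN-, LYVE-, TER119- and CD31+ cells. Day 1.5 TCs were intravascular or extravascular by exposure to an injected H-2Kd antibody (the same 4 animals in both gates). Day 3.5 TCs had kept the dye (latent, 4 animals) or diluted it (proliferative). All sorted proliferative cells carry the same animal, m12, in the deposited annotation, and the cultured TCs were not split by animal, so both are treated as single pools without replicates. For the proliferative gate the sample labels number several replicates instead, so that its values may stem from more animals than m12. Animals are numbered as in that annotation, which also gives m1 and m2 of day 0 the sort day 1.5, and m3 and m4 the sort day 3.5.

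Wnt proteins are secreted glycoproteins that bind Frizzled receptors and LRP co-receptors on nearby cells and, in the canonical branch, stabilize beta-catenin. Before a cell can release them, Porcn, an acyltransferase of the endoplasmic reticulum, attaches a lipid to the ligand, and Wls, a transmembrane carrier, escorts the lipidated protein to the surface. R-spondins such as Rspo3 bind Lgr receptors and the ubiquitin ligases Znrf3 and Rnf43, which otherwise remove Frizzled from the membrane, so that they strengthen a Wnt signal without being Wnts themselves. In the lung, the capillary bed holds general capillary ECs (gCaps), which serve as the progenitor pool, and aerocytes (aCaps), the thin cells apposed to the alveoli.

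The data set comprised 3455 sorted ECs and 1920 sorted TCs, of which 2479 and 1566 are in the deposited tables of filtered cells and are called kept here. Median depth was 334250 reads in kept ECs and 456396 in kept TCs, and median gene number was 2493 and 6340. Per animal, the kept cells together held 75579600 to 129504000 reads for ECs and 31890300 to 49892400 reads for TC gates with replicates. Sums over the kept cells of an animal were divided by the library total and scaled (CPM, the usual count unit for libraries of unequal depth), which is the level used throughout, and the share of cells with an estimated count above 0 was given beside it. Because that share rises with depth, it was also computed at 50000 reads per cell, leaving out shallower cells. The libraries carry no molecular identifiers, so counting intervals cover counting error only. The markers Pecam1, Cdh5, Kdr, Cldn5 and Tie1 summed to 5973 to 10334 CPM in every EC library against 8.48 to 30.7 CPM in the replicated TC libraries, and Epcam, Cdh1, Krt8, Krt14 and Krt18 to 2349 to 5021 CPM in these TC libraries against at most 10.9 CPM in ECs. Of the lymphatic markers, Lyve1 was present in the kept ECs at 481 to 750 CPM by day although the sort was against LYVE, whereas Prox1 stayed below 1 CPM and Pdpn below 0.2 CPM.

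The genes lie on separate stretches of the mouse genome (GRCm38). Wnt2 spans chr6:17988940-18030585 and Wnt2b chr3:104945272-104961921, both on the minus strand. Wnt4 spans chr4:137277489-137299726 and Wnt9a chr11:59306928-59333552, both on the plus strand. Rspo3 lies on the minus strand at chr10:29452416-29535867, Wls on the plus strand at chr3:159839672-159938664 and Porcn on the minus strand at chrX:8193848-8206525. Reads that fit several genes were shared out by the authors' quantifier, which then gives estimates that are not whole. Of the 909 kept ECs with Wnt4, 905 had such a fractional estimate (99.6%), and among TCs it was 458 of 465 (98.5%). For Wls this held for 20.2% of ECs with reads, and for Wnt2, Wnt2b, Wnt9a, Rspo3 and Porcn for 0%. The median over 16120 genes with reads in at least 30 ECs was 33.0%, and 8.57% of these genes were fractional in at least 95% of their cells. The Wnt4 transcript of 4194 nucleotides shares 329 of its 4164 windows of 31 bases (7.90%) with 2647 other genes, in 3 stretches of its 3' UTR at chr4:137296919-137297028, chr4:137297476-137297650 and chr4:137299592-137299726. How many of the Wnt4 reads stem from these stretches was not analysed here, and each Wnt4 value below is therefore uncertain to that extent. Rspo3 shares 376 windows in its 5' part with 1 other gene, yet 0 of its estimates were fractional.

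Among ligands, Wnt4, which can signal with and without beta-catenin, was the most widely found in ECs. Reads were present in 909 of 2479 kept ECs (36.7%), and in 26.0% ± 5.14 (SD, n = 10 animals) at 50000 reads. Its level in the 4 day 0 animals was 17.6, 14.0, 15.9 and 18.0 CPM (m1 to m4). On day 1.5 it was 23.2, 47.1 and 18.3 CPM (m5 to m7), and on day 3.5 it was 22.4, 25.6 and 26.9 CPM (m9 to m11). Every later animal was therefore above every day 0 animal, although m7 exceeded m4 by little, and m6 stood apart at the top. Such a separation from day 0 was found for 827 of 17585 tested genes (4.7%) on day 1.5 and for 857 (4.87%) on day 3.5. The difference did not pass the test over all genes: the log2 fold change against day 0 was 0.79 ± 0.44 (SE, edgeR adjusted p = 0.685) on day 1.5 and 0.54 ± 0.44 (adjusted p = 0.786) on day 3.5. The comparisons share the day 0 animals. Reads were spread over many cells, since the richest cell of an animal held between 6.57 and 16.8% of them.

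Wnt2b and Wnt9a, ligands of the canonical branch, were confined to few ECs. Wnt2b had reads in 33 of 2479 kept ECs (1.33%) and averaged 0.90 ± 1.73, 0.79 ± 0.99 and 3.48 ± 2.88 CPM on days 0, 1.5 and 3.5 (n = 4, 3 and 3). Its animals ranged from 0 to 6.12 CPM and overlapped between all days. Wnt9a had reads in 36 kept ECs (1.45%) at 1.15 ± 1.37, 4.44 ± 6.16 and 0.53 ± 0.70 CPM. The day 1.5 mean of Wnt9a rested on m6 (11.5 CPM), in which 88.5% of the reads came from a single gCap. Wnt2, a canonical ligand, had reads in 7 kept ECs (0.28%). A single large-vessel EC of m1 held 2613 of the 2668 Wnt2 reads (97.9%), which set the 34.6 CPM of that animal, while the other day 0 animals were at 0. On day 3.5, 0 of 699 kept ECs had Wnt2 reads, which allows a share of cells with reads of up to 0.429% and does not limit the share of cells that express the gene at a lower level. Wnt2 passed the filter on low counts in no comparison among ECs and was not tested there.

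Rspo3 was likewise rare, with reads in 46 of 2479 kept ECs (1.86%), but reached high levels in single cells. Its day 0 animals were at 4.70, 3.43, 23.2 and 1.13 CPM (m1 to m4). On day 1.5 it was at 0.826, 0.0117 and 1.81 CPM (m5 to m7), and on day 3.5 at 17.1, 5.78 and 11.0 CPM (m9 to m11). The day 3.5 animals were all above those of day 1.5, a separation shared by 826 genes (4.7%), and the day 0 animals spanned both. The log2 fold change of day 3.5 against day 1.5 was 3.69 ± 1.52 (SE, edgeR unadjusted p = 0.0343, adjusted p = 1), and that of day 1.5 against day 0 was -3.25 ± 1.45 (unadjusted p = 0.0475, adjusted p = 0.613). With the sort day as a term these values became 2.13 ± 2.19 and -2.27 ± 1.53. Between 42.0 and 100% of an animal's Rspo3 reads came from its richest cell, so that these sums rest on few cells.

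Wls, the carrier, had the highest EC level of the 7 genes. Per kilobase of the longest transcript it averaged 34.1 CPM, against 5.46 for Wnt4, 4.15 for Porcn, 2.23 for Rspo3, 1.56 for Wnt2, 0.589 for Wnt9a and 0.494 for Wnt2b. Wls lay above Wnt4 in every animal, whereas the ranges over animals of each neighboring pair from Wnt4 downwards overlapped. Wls day 0 animals were at 106, 189, 91.0 and 121 CPM (m1 to m4). On day 1.5 they were at 105, 137 and 144 CPM (m5 to m7), and on day 3.5 at 146, 55.1 and 119 CPM (m9 to m11). The 3 days overlapped, and the log2 fold change against day 0 was -0.05 ± 0.37 (SE, edgeR adjusted p = 0.988) on day 1.5 and -0.32 ± 0.37 (adjusted p = 0.865) on day 3.5. Porcn, the acyltransferase, was at 11.8, 18.5, 18.2 and 14.9 CPM on day 0 (m1 to m4). It was at 2.53, 13.5 and 6.58 CPM on day 1.5 (m5 to m7) and at 2.46, 5.19 and 15.1 CPM on day 3.5 (m9 to m11). The later means lay below the day 0 mean, with 1 animal of each later day inside the day 0 range, and the log2 fold changes were -1.14 ± 0.78 (adjusted p = 0.747) and -1.13 ± 0.78 (adjusted p = 0.727). Porcn reads were found in 129 kept ECs (5.20%).

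Against day 0, Wnt2b changed by -0.29 ± 2.03 and 1.88 ± 2.02 on the log2 scale and Wnt9a by 1.90 ± 1.89 and -1.16 ± 1.94 (edgeR adjusted p = 0.841 to 0.987). From day 1.5 to day 3.5, Wnt4, Wls and Porcn differed by -0.26 ± 0.47, -0.27 ± 0.39 and 0.0052 ± 0.805, Wnt2b by 2.17 ± 2.25 and Wnt9a by -3.07 ± 2.18 (adjusted p = 1 each). Over the 3 endothelial days, 0 of the 6 tested members passed an adjusted p of 0.05 in any of the 3 comparisons. The background was the same: 0 of 17585 genes (0%) were called by edgeR in each, although 1422, 1541 and 798 genes had an unadjusted p below 0.05 for day 1.5 against day 0, day 3.5 against day 0 and day 3.5 against day 1.5. DESeq2 called 360, 475 and 124 genes and again 0 members. The median member changed by -0.17 and 0.06 on the log2 scale on days 1.5 and 3.5 against day 0, and the median gene by -0.05 and -0.06.

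**Figure D1:**
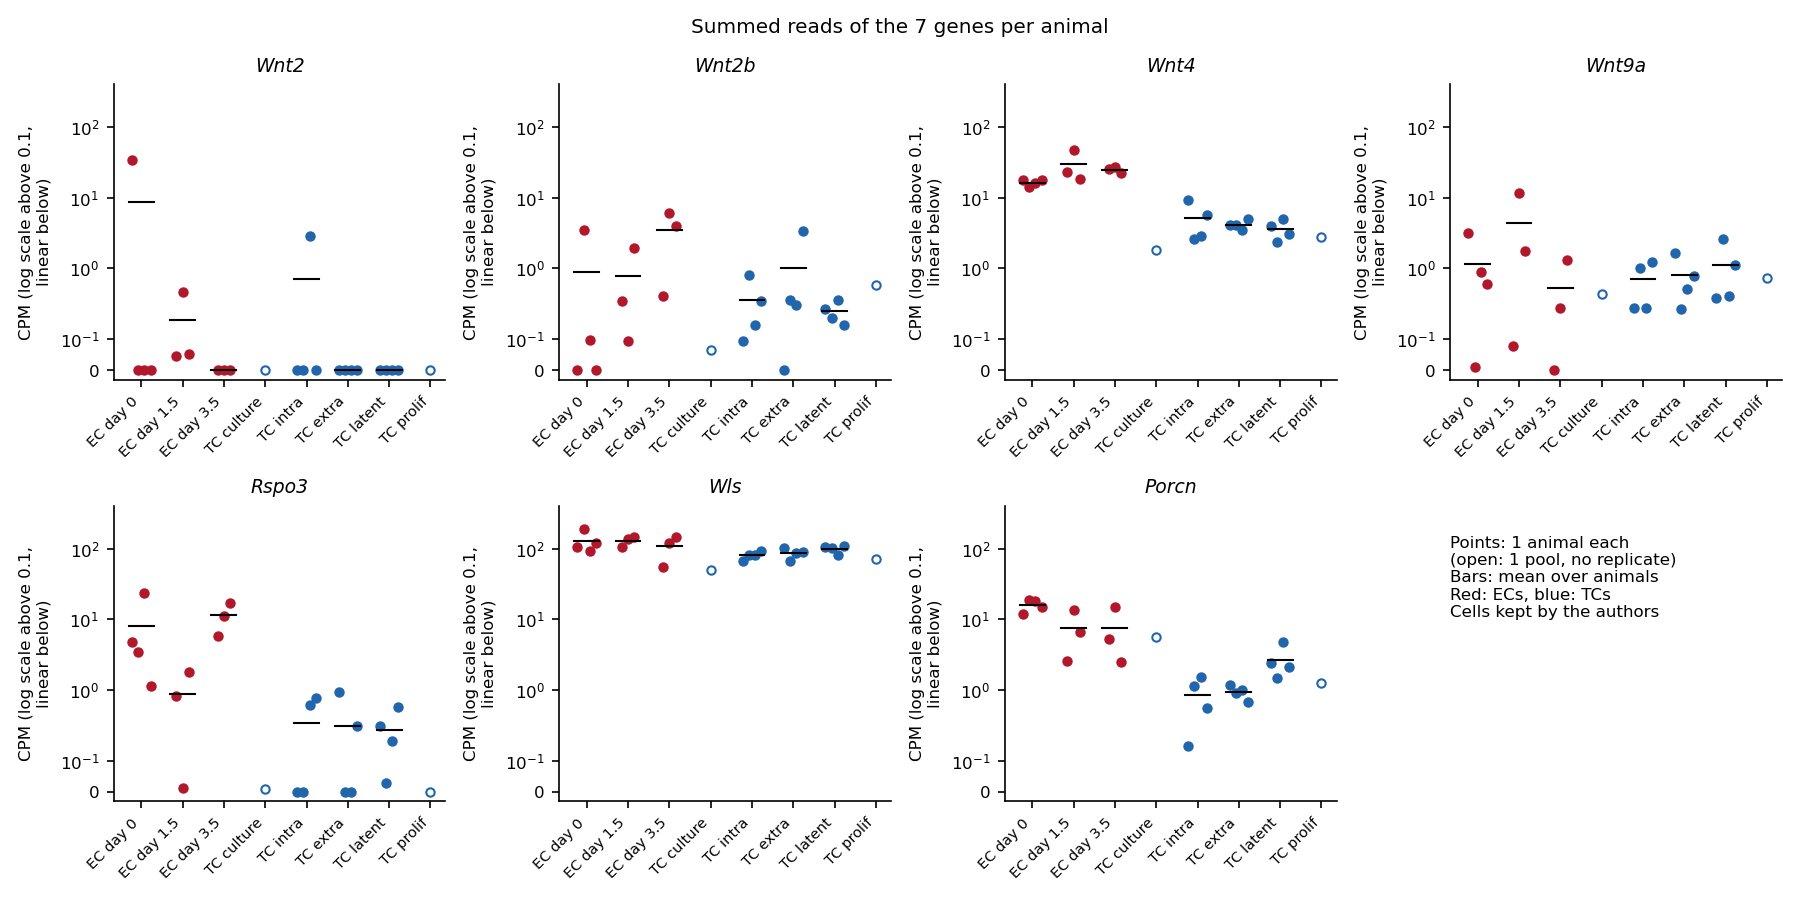
Summed reads of each gene per animal in CPM (log scale above 0.1 and linear below) for the 3 EC days and the 5 TC groups, with a bar at the mean. Wnt4 and Porcn sit higher in ECs than in TCs sorted from lungs on day 1.5, Wls lies between 55.1 and 189 CPM in ECs, and the points of Wnt2, Wnt2b, Wnt9a and Rspo3 scatter widely down to 0.

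The deposited table of filtered capillary ECs holds 2293 cells. The other 1161 sorted ECs with reads were 186 cells that the authors kept elsewhere, mostly of the large-vessel class, and 975 that they did not keep, at a median of 7486 reads. In the table, Wnt4 averaged 23.5 ± 9.04 CPM (SD, n = 10 animals) against 25.1 ± 17.4 CPM outside. Wls averaged 125 ± 38.4 against 77.7 ± 46.8 CPM and was higher inside in 9 of 10 animals. Rspo3 averaged 7.40 ± 8.33 against 7.06 ± 11.9 CPM, Porcn 9.95 ± 6.80 against 15.0 ± 17.8 CPM, Wnt2b 1.78 ± 2.34 against 0.50 ± 0.89 CPM and Wnt9a 1.96 ± 3.81 against 2.66 ± 5.16 CPM. With the animal as a block, 0 of 6 tested members were called, where 229 of 14452 genes (1.58%) were. The log2 fold changes were 2.12 ± 1.08 for Wnt2b (edgeR adjusted p = 0.405), 0.67 ± 1.16 for Rspo3 (0.837), 0.63 ± 0.33 for Wls (0.419) and 0.61 ± 1.39 for Wnt9a (0.885), beside a median over all genes of 0.32. Those of Porcn and Wnt4 were 0.09 ± 1.25 and -0.02 ± 0.50. Wnt2 was not tested and averaged 0.0534 ± 0.155 CPM inside and 14.2 ± 44.6 CPM outside, where the large-vessel EC of m1 lies. At 50000 reads, Wnt4 was found in 26.5% ± 5.20 of cells inside and 27.2% ± 9.54 outside, and Wls in 20.4% ± 4.56 and 21.6% ± 6.78. The unadjusted shares were 37.1% against 18.9% and 32.9% against 18.5%. The fixed depth left out 169 of 2293 cells inside and 660 of 1161 outside, so that it also changed which cells were compared.

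Split by origin, the outside cells differed among themselves. Among the 186 kept cells, Wnt2b had 0 cells with reads (which allows up to 1.61%) and Rspo3 2, whereas among the 975 cells that were not kept these genes were found in 8 and 16 cells. Rspo3 averaged 0.0381 ± 0.0834 CPM in the former and 11.2 ± 16.4 CPM in the latter. Fibroblast and mural markers (9 of 9 found) summed to 2.88 to 7781 CPM in the libraries of cells not kept, with medians of 1508, 2905 and 458 CPM on the 3 days, against at most 28.3 CPM inside the table. Immune markers reached 663 CPM there on day 3.5, against at most 52.2 CPM inside. The part of these cells in the outside values was not tested. In the capillary table alone, Porcn was at 12.5, 19.9, 19.1 and 15.7 CPM on day 0 (m1 to m4), at 2.44, 6.55 and 7.06 CPM on day 1.5 (m5 to m7) and at 1.06, 3.83 and 11.4 CPM on day 3.5 (m9 to m11). There the later days lay wholly below day 0, as they did for 481 of 17281 genes (2.78%) on day 1.5 and 523 (3.03%) on day 3.5, and log2 fold changes of -1.69 ± 0.83 and -1.67 ± 0.82 were not called (edgeR adjusted p = 0.667 and 0.616). Between 23.8 and 85.4% of these Porcn reads came from the richest cell of the animal, and a gCap of m2 held 78.5% of that animal's reads, without which m2 would no longer lie above all animals of the later days. In kept ECs without the richest cells, the log2 fold changes against day 0 were -0.85 ± 0.87 and -0.57 ± 0.86.

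Endothelial classes were set by the study's marker lists and score limits, none of which hold any of the 7 genes. This gave 1580 gCaps, 602 aCaps, 133 large-vessel, 24 cycling and 140 unclassified ECs. Rspo3 differed between the capillary classes. It was found in 34 of 602 aCaps and in 10 of 1580 gCaps, or 5.35% ± 3.29 and 0.316% ± 0.566 at 50000 reads (SD, n = 10 animals). In aCaps its animals were at 15.1, 11.2, 30.9 and 4.64 CPM on day 0, at 3.25, 0.0410 and 6.24 CPM on day 1.5 and at 36.5, 27.9 and 53.3 CPM on day 3.5, in the order of animal numbers. In gCaps it was at 21.0 CPM in m3, at 12.5 CPM in m9 and at most 0.0453 CPM in the other 8 animals. It was higher in aCaps in 10 of 10 animals, by a single read in m6 and by a smaller ratio in m3 and m9 than in the others.

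With the animal as a block, the Rspo3 log2 fold change of gCaps over aCaps was -8.92 ± 1.59 (SE, edgeR adjusted p = 0.00210), at group means of 3.36 ± 7.34 and 18.9 ± 17.5 CPM. Because 8 of the 10 gCap libraries held 0 to 3 Rspo3 reads, the size of the fitted change depends on the prior count, and because Rspo3 passed the filter through the aCap libraries, where it is high, a gene tested in this way was bound to differ and the call adds no support of its own. The gCap mean in turn rests mostly on a cell each of m3 and m9. Rspo3 was 1 of 5 tested members called, against 1193 of 13429 genes (8.88%) in either direction and 582 (4.33%) in this one. Leaving out any animal kept the call (log2 fold change -9.59 to -8.51), and DESeq2 made it too. These refits hold the same selected gene, so they add no support either. Without the block, the log2 fold change was -2.87 ± 1.50 (edgeR adjusted p = 0.292). When the richest cell of each library was removed, 1277 of 4498 reads remained in aCaps, in 7 animals (mean 5.28 CPM), and 247 of 1752 in gCaps, in 3 animals (0.496 CPM), and Rspo3 no longer passed the filter. Of the cells with reads, 33 of 34 aCaps and 8 of 10 gCaps lay more than 0.1 from the score limit between the classes.

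Within aCaps, Rspo3 averaged 15.5 ± 11.2 CPM on day 0, 3.18 ± 3.10 on day 1.5 and 39.2 ± 12.9 on day 3.5 (n = 4, 3 and 3). At 50000 reads the share of aCaps with Rspo3 was 5.13% ± 1.65, 2.12% ± 1.42 and 8.86% ± 2.89. The day 3.5 aCap libraries lay above all of day 1.5, as did those of 532 of 13535 genes (3.93%), while day 0 reached into both. These class-by-day values rest on 14 of 217, 7 of 244 and 13 of 141 cells and were not tested. In m11, the highest aCap library, a single cell held 773 Rspo3 reads. It also held 579 CPM of fibroblast and mural markers, beside 7762 CPM of endothelial markers, and their part in the value was not tested.

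Wnt9a, in contrast, had reads in 29 of 1580 gCaps and 3 of 602 aCaps. It was at 3.06 ± 6.19 CPM in gCaps, with a range of 0 to 20.1 CPM, and at 0.0549 ± 0.160 CPM in aCaps, with reads in 2 of 10 animals. It was higher in gCaps in 9 animals and at 0 in both classes in the other. It did not pass the filter on low counts, and was called only when that filter was left out. Without the richest cell of each library, 357 of 1536 gCap reads remained, at a mean of 0.671 CPM, and 1 of 18 aCap reads. Wnt4 did not differ detectably, at 24.4 ± 9.11 CPM in gCaps and 21.1 ± 15.8 CPM in aCaps (log2 fold change 0.11 ± 0.43, edgeR adjusted p = 0.925). Its gCap level was the higher in 6 of 10 animals, among them all 4 of day 0. Wls was at 130 ± 60.0 and 108 ± 74.9 CPM (0.04 ± 0.42, adjusted p = 0.976) and Porcn at 10.7 ± 8.43 and 12.3 ± 8.46 CPM (-0.72 ± 0.55, adjusted p = 0.526). Wnt2b was at 1.77 ± 2.30 and 2.27 ± 4.67 CPM (-0.57 ± 1.51, adjusted p = 0.885). Wnt2 was found in 4 gCaps and 0 aCaps and was not tested. The median member changed by -0.57 and the median gene by 0.25.

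**Figure D2:**
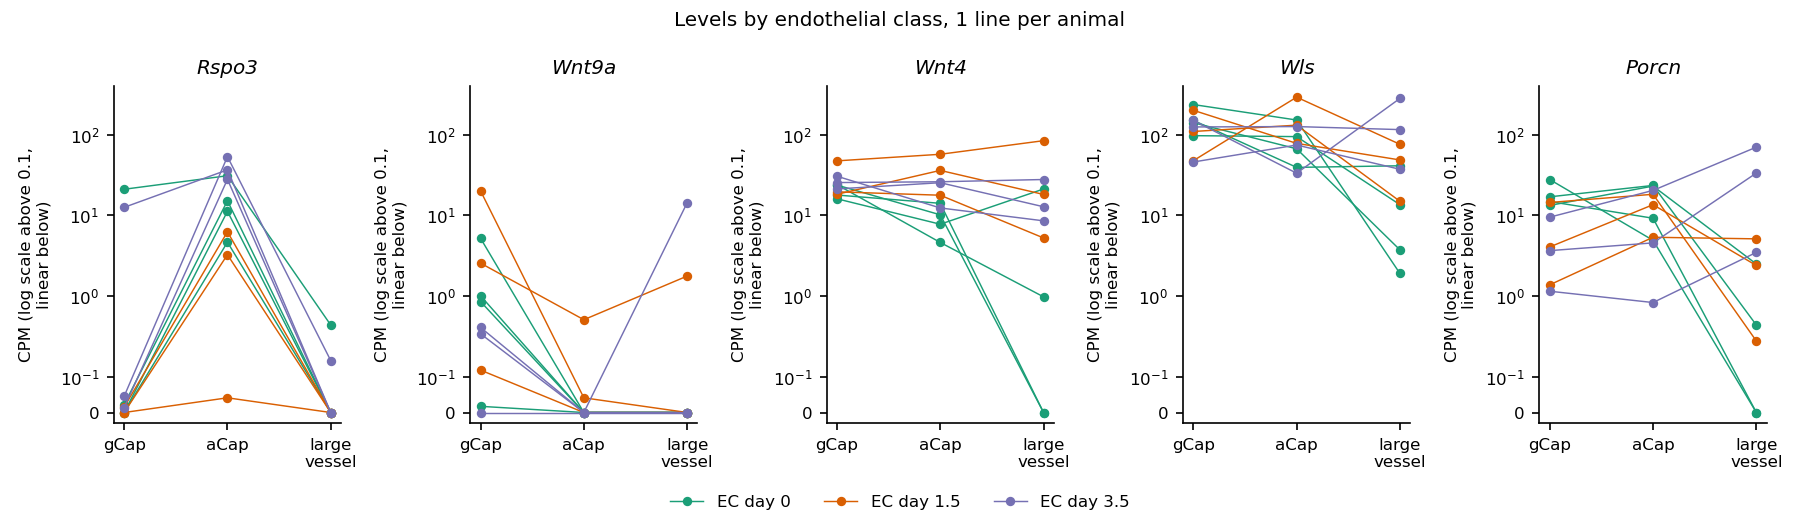
CPM of 5 genes in gCaps, aCaps and large-vessel ECs (log scale above 0.1 and linear below), with a line for each of the 10 animals, colored by day. Rspo3 peaks in aCaps in every animal, Wnt9a stays at or below 0.508 CPM in aCaps, and the lines of Wnt4, Wls and Porcn cross.

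Large-vessel ECs were few, with 5 to 28 cells per animal. Wnt2b was found in 0 of 133 of them, which allows a share of up to 2.26%, and in 18 of 1580 gCaps. Wnt4 was at 17.9 ± 25.1 CPM and Wls at 63.2 ± 84.1 CPM, below the gCap level of the same animal in 7 and 8 of 10 animals. Porcn was at 11.7 ± 22.8 CPM. Wnt2, Wnt9a and Rspo3 had reads in 3, 2 and 2 of the 133 cells and were not tested. Against gCaps, 0 of 3 tested members were called, where 2064 of 12204 genes (16.9%) were. The log2 fold changes of Wnt4 (-1.10 ± 1.23), Wls (-1.29 ± 0.97) and Porcn (-1.09 ± 1.77) stood beside a median of -1.85 over all genes.

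In TCs, Wnt4 was found at lower levels than in ECs. Intravascular TCs were at 9.28, 2.62, 2.86 and 5.65 CPM and extravascular TCs at 4.07, 4.06, 3.50 and 4.94 CPM (m5 to m8). Latent TCs were at 3.10, 4.00, 2.38 and 4.96 CPM (m9 to m12), the proliferative pool at 2.81 CPM and the culture at 1.81 CPM. In intravascular m5, the highest library, a single cell held 68.7% of the reads. Wls was present in most TCs. Its gates averaged 80.9 ± 10.3 CPM (intravascular), 85.2 ± 14.9 (extravascular) and 99.8 ± 12.7 (latent; SD, n = 4 each), and the proliferative and cultured pools were at 70.8 and 49.991 CPM. Wnt9a was at 0.70 ± 0.50, 0.81 ± 0.60 and 1.12 ± 1.03 CPM, Wnt2b at 0.35 ± 0.33, 1.01 ± 1.60 and 0.25 ± 0.09 CPM, and Rspo3 at 0.92 CPM or less in every TC library. Wnt2 was found in 1 of 1566 kept TCs, an intravascular cell of m7 with 125 reads. That cell also held 983 CPM of fibroblast and mural markers, beside 3845 CPM of tumor markers.

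Between the gates, Porcn was the tested member with the smallest p. Extravascular TCs were at 1.17, 0.894, 0.994 and 0.670 CPM (m5 to m8) and latent TCs at 2.13, 2.40, 1.46 and 4.73 CPM (m9 to m12). A single cell held 97.7, 83.7, 45.5 and 73.3% of the Porcn reads of the extravascular animals and 51.5, 31.5, 39.2 and 71.7% of those of the latent animals, in the same order. All latent animals were above all extravascular ones, as were those of 1901 of 15639 genes (12.2%). The log2 fold change was 1.40 ± 0.62 (SE, edgeR unadjusted p = 0.0407, adjusted p = 0.175), and the share of cells at 50000 reads was 2.22% ± 0.37 and 4.61% ± 0.64. Without the richest cell of each library the log2 fold change was 2.32 ± 0.76 (edgeR adjusted p = 0.0661). By the shares above, this removal took more of the extravascular than of the latent reads. It therefore widens the difference by itself and adds no support. Immune markers summed to 4.53 to 251 CPM in the latent and 2.47 to 11.3 CPM in the extravascular libraries, and their part in the difference was not tested. The cultured pool was at 5.62 CPM, with reads in 66 of 369 cells (17.9%, exact 95% interval 14.1 to 22.2), and the proliferative pool at 1.24 CPM, with 16 of 237 cells (6.75%, 3.91 to 10.7). Of 6 tested members, 0 were called for latent against extravascular TCs (background 1796 genes, 11.5%) or for extravascular against intravascular TCs (330 genes, 2.11%). For the latter, Wnt4 and Wls changed by -0.37 ± 0.41 and -0.01 ± 0.14 on the log2 scale (adjusted p = 0.691 and 0.986), Wnt2b by 1.44 ± 1.12, Wnt9a by 0.12 ± 0.77, Rspo3 by -0.26 ± 1.47 and Porcn by 0.05 ± 0.61. From extravascular to latent TCs, Wnt2b changed by -2.15 ± 1.15 (adjusted p = 0.271) and, without the extravascular m8, by 0.012. Wnt2b was at 3.396 CPM in m8, where a single cell held 63.8% of its reads, and at 0.354 CPM or less in the other extravascular animals. Wnt4 changed by -0.33 ± 0.41, Wnt9a by 0.35 ± 0.77, Rspo3 by -0.30 ± 1.49 and Wls by 0.09 ± 0.14. Each gate was sequenced on a lane of its own, so gate and lane cannot be told apart.

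ECs and TCs of day 1.5 were then compared to see in which of both populations the genes were expressed. Wnt4 was at 18.3 to 47.1 CPM in the 3 EC animals and at 2.62 to 9.28 CPM in the 8 TC libraries, with a log2 fold change of 2.22 ± 0.35 (SE, edgeR adjusted p = 3.35e-05). Porcn was at 2.53 to 13.5 CPM against 0.162 to 1.52 CPM, with a log2 fold change of 2.60 ± 0.57 (adjusted p = 0.000937). Both were therefore higher in ECs, and neither overlapped. They were 2 of 7 tested members called, where 10116 of 19021 genes (53.2%) were called in either direction and 5862 (30.8%) as higher in ECs. Wls was at 105 to 144 CPM in ECs and at 65.6 to 102 CPM in TCs, which did not overlap (nor did those of 5477 genes, 28.8%), yet after normalization its log2 fold change was 0.17 ± 0.25 (adjusted p = 0.594) beside a median of 0.27 over all genes. Wnt9a (2.10 ± 1.21, adjusted p = 0.151), Wnt2 (1.99 ± 2.85, adjusted p = 0.582), Rspo3 (0.97 ± 1.35, adjusted p = 0.565) and Wnt2b (-0.07 ± 1.55, adjusted p = 0.976) were not called. EC cDNA was amplified with more PCR cycles than TC cDNA and run on other lanes, and these differences cannot be told apart from cell type.

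For Wnt4, the fractional estimates bear on this comparison. Among 1091 tested genes that were fractional in at least 95% of their cells, the median log2 fold change of ECs over TCs was -1.05, 245 (22.5%) were called higher in ECs, and 116 had a value at or above that of Wnt4. In the day comparisons, 190 and 303 of 1248 such genes had a change against day 0 at or above that of Wnt4. Among the 30 libraries of 3 EC classes and 10 animals, the genes whose log2 CPM ran most like that of Wnt4 over 8614 genes were Lamtor3 (Pearson r = 0.85), Sar1a (0.81) and Supt4a (0.81). These libraries differ in depth, the large-vessel ones being shallowest, so the values are descriptive.

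Level and share gave different orders for Wls. At 50000 reads it was found in 11.98 to 29.8% of kept ECs per animal, but in 56.5 to 74.2% of intravascular and extravascular TCs, 69.8 to 82.5% of latent TCs, 71.3% of the proliferative pool and 62.6% of the culture. A single cell held 7.65 to 45.9% of the Wls reads of an EC animal and 6.05 to 14.5% of those of a replicated TC library. By CPM, in contrast, Wls was higher in ECs than in TCs of day 1.5, without a call. Wnt4 gave the same order by both measures, with 21.4 to 37.7% of ECs and 10.7 to 15.7% of TCs in replicated gates. ECs had fewer detected genes per cell at the depths given above, and the part of amplification in these shares was not tested.

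**Figure D3:**
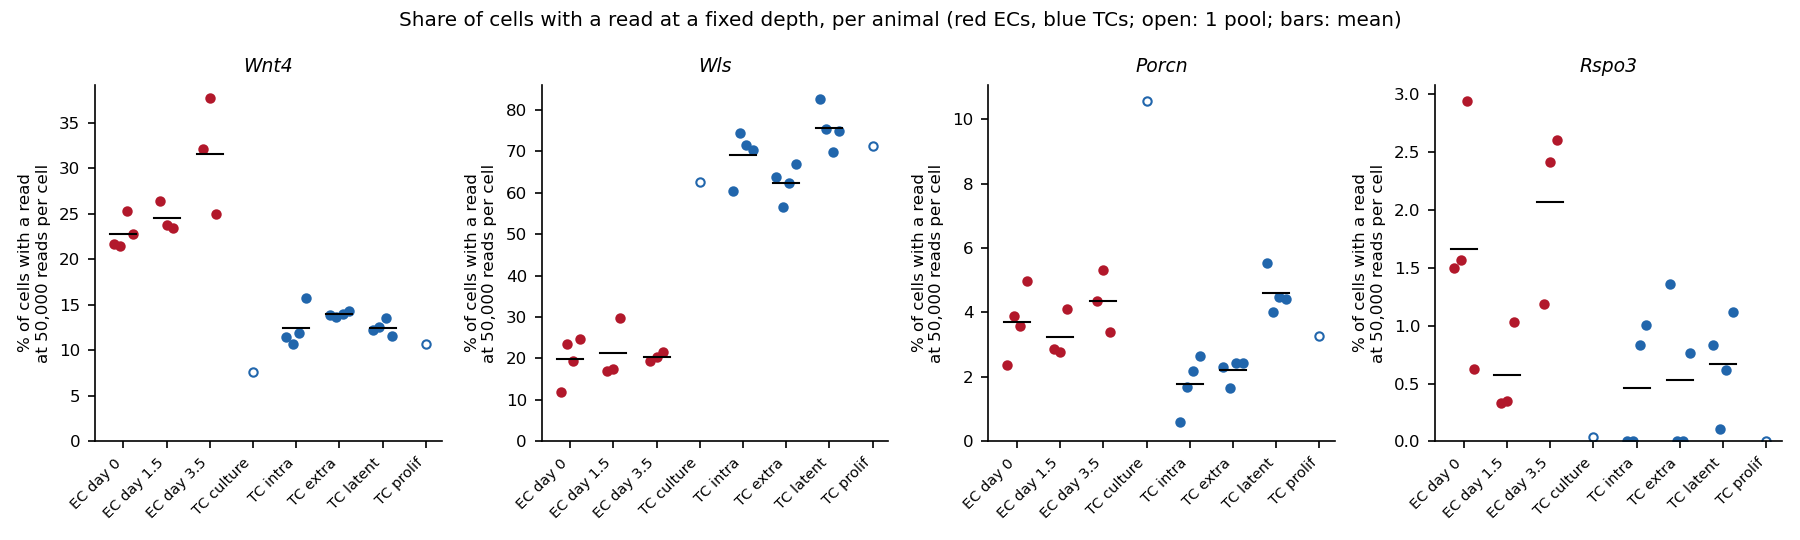
Percent of kept cells with at least a read of the gene when each cell was reduced to 50000 reads, per animal, with bars at the mean and open circles for pools. Wnt4 is found in more ECs than TCs, Wls in 11.98 to 29.8% of ECs per animal and in at least 56.5% of TCs in each library, and Porcn and Rspo3 in few cells of either.

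The secretion genes were also counted in ECs with and without Wnt4 or Rspo3. At 50000 reads Wls was found in 23.2% of 879 Wnt4-positive and 19.0% of 1418 Wnt4-negative ECs, and Porcn in 4.04 and 3.43%. Wls was found in 17.7% of 45 Rspo3-positive ECs and in 20.7% of the other 2252, and Wnt4 in 32.3 and 25.6%. These cells were pooled over animals and the differences were not tested.

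The other 15 Wnt ligand genes gave a contrasting picture. In ECs, all of them averaged 0.165 CPM or less, with Wnt5b (1 cell), Wnt5a (53 cells) and Wnt3 (4 cells) at the top, so that the 4 ligands above had higher EC means. Wnt2 did so through the single cell of m1. Wnt5a was found in more ECs than Wnt2, Wnt2b or Wnt9a, although its estimates were fractional in 64.2% of these ECs. In TCs, Wnt7b, Wnt10a and Wnt7a, canonical ligands of epithelia, averaged 38.8, 29.6 and 8.35 CPM over the replicated gates and were found in 67.4, 43.8 and 19.9% of TCs. Their order was not the same in each TC group, since in the culture pool they were at 22.1, 10.3 and 47.3 CPM, and the latent means of Wnt7b and Wnt10a were 48.4 ± 5.80 and 50.7 ± 19.6 CPM. Of 8 other ligands tested between ECs and TCs, 5 were called lower in ECs (Wnt5b, Wnt7a, Wnt7b, Wnt10a and Wnt11), as were 4254 of all genes (22.4%), and 0 higher. In day 1.5 ECs these 5 genes were listed at 0 in all animals (Wnt5b and Wnt11) or averaged 0.238 CPM or less, and they passed the filter through the TC libraries, so a gene tested in this way was bound to be lower in ECs. With the animal as a block, Wnt11 was not called (edgeR adjusted p = 0.108). Wnt10a rose from 20.5 ± 4.94 CPM in extravascular to 50.7 ± 19.6 CPM in latent TCs (log2 fold change 1.16 ± 0.31, edgeR adjusted p = 0.0261), with overlapping ranges, and was at 34.6 CPM in the proliferative pool. Wnt7b was at 32.8 ± 4.67 and 48.4 ± 5.80 CPM, without a call (0.42 ± 0.17, adjusted p = 0.126).

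**Figure D4:**
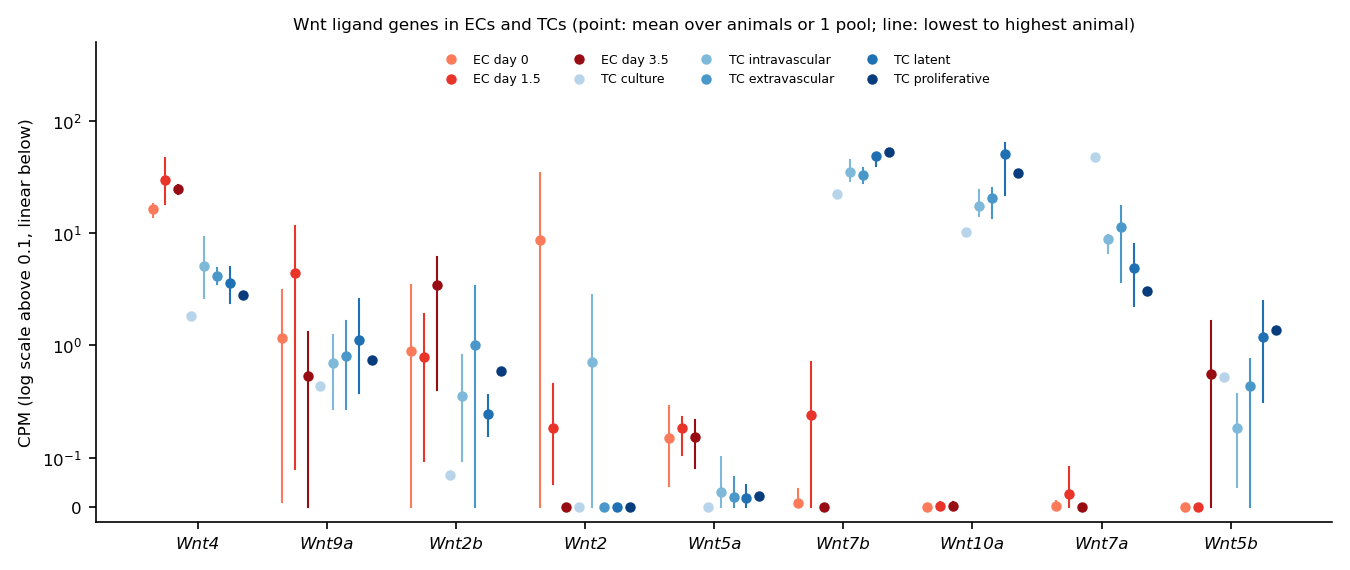
CPM of 9 Wnt ligand genes (log scale above 0.1 and linear below) by EC day and TC group, with the mean or pool as a point and the lowest to highest animal as a line. Wnt4 has the highest mean on each EC day, at 14.0 to 47.1 CPM per animal, and Wnt7b, Wnt10a and Wnt7a stand highest in TCs, where they are near 0 in ECs.

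Among the 8 genes of the R-spondin axis (other R-spondins, their Lgr receptors and the ligases), 5 could be tested between EC days and 0 were called. Rspo1, Rspo2 and Rspo4 averaged at most 0.122 CPM in ECs. Znrf3 was at 82.7 CPM in ECs and 44.6 CPM in TCs and was higher in gCaps than in aCaps (4.79 ± 1.10, edgeR adjusted p = 0.0125), the reverse of Rspo3. Lgr4 averaged 2.99 CPM in ECs and 6.14 CPM in TCs. Against TCs, Lgr5 was called higher and Lgr6 and Rnf43 lower in ECs, where 30.8% of all genes were called higher and 22.4% lower. Rnf43 averaged 0.00515 CPM in day 1.5 ECs and passed the filter through the TC libraries. Its call therefore adds no support of its own. Lgr5 averaged 1.10 CPM in day 1.5 ECs, against 0.369 and 0.0661 CPM in intravascular and extravascular TCs. The Lgr5 estimates were fractional in 87.9% of ECs.

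The 8 genes of Wnt trafficking were all expressed in both cell types. They are cargo receptors of the p24 family, retromer subunits that recycle Wls, and the sorting nexin Snx3, which acts with retromer. Tmed10 was highest, at 643 CPM in ECs and 500 CPM in TCs. None of them was called between EC days. Tmed10 (-0.85 ± 0.22), Vps29 (-0.84 ± 0.22) and Snx3 (-0.78 ± 0.14) were lower in gCaps than in aCaps, with edgeR adjusted p of 0.0284, 0.0302 and 0.00210. Over all genes, 582 of 13429 (4.33%) were called lower there. Vps26a was lower in large-vessel ECs than in gCaps. In that comparison 1898 of 12204 genes (15.6%) were called lower and the median over all genes was -1.85. In TCs, Tmed2 and Tmed4 were higher and Vps29 lower in extravascular than in intravascular cells, but not with the animal as a block (edgeR adjusted p = 0.0643, 0.0973 and 0.0777). Without the block, 330 of 15639 genes (2.11%) were called. Tmed2 and Tmed5 were called lower in latent than in extravascular cells, as were 1038 of 15639 genes (6.64%). Among 2162 tested genes that, like Tmed5, were fractional in nearly all TCs with reads, 416 were called lower and 43 higher. Their median log2 fold change was -0.41, beside 0.0043 over all genes. The part of this shift in the Tmed5 call was not tested. After normalization, ECs of day 1.5 were called higher than TCs for Tmed4 and lower for Tmed2, Tmed5 and Vps29. In that comparison 53.2% of all genes were called in either direction, 30.8% higher and 22.4% lower. The calls of Tmed2 and Vps29 were lost with the block (edgeR adjusted p = 0.0806 and 0.0551), while Vps35 was called higher in ECs with it (0.66 ± 0.16, adjusted p = 0.00891). Vps29 in CPM was at 303 ± 39.9 in ECs, between 261 ± 26.1 in extravascular and 334 ± 23.6 in intravascular TCs. Tmed5 estimates were fractional in 93.8% of ECs and 97.0% of TCs.

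Of 13 secreted Wnt inhibitors, Wif1, which binds Wnt proteins directly, was the highest in ECs at 9.43 CPM, with reads in 91 kept ECs (3.67%). It was higher in gCaps than in aCaps (8.46 ± 1.19, edgeR adjusted p = 0.000327), without overlap between their libraries (as for 195 genes, 1.45%), and lower in large-vessel ECs than in gCaps. Wif1 was at or near 0 in every aCap and large-vessel library and passed the filter through the gCap libraries, so the size of these fitted changes depends on the prior count and the calls, as for Rspo3, add no support of their own. In TCs it was at 0.00193 CPM over the replicated gates and at 0.220 CPM in the proliferative pool. Notum, the enzyme that removes the lipid Porcn adds, was at 0.00486 CPM in ECs and rose from 2.45 ± 1.57 CPM in extravascular to 13.9 ± 5.21 CPM in latent TCs (2.35 ± 0.65, adjusted p = 0.0323), with 9.43 CPM in the proliferative pool. Sfrp1 rose from 10.5 ± 1.53 to 21.9 ± 4.90 CPM (0.92 ± 0.25, adjusted p = 0.0325), with 23.1 CPM in that pool. Against TCs, Dkk1, Dkk2 and Wif1 were called higher and Notum lower in ECs, with Dkk1 fractional in 94.6% of ECs. Dkk1, Dkk2 and Wif1 were at or near 0 in day 1.5 TCs and Notum was at 0 in day 1.5 ECs, so each passed the filter through the cells in which it is high, and these calls add no support either. Of 6 inhibitors tested between EC days, 0 were called.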

How the data were processed

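Sorted cells were sequenced in plates by a modified SMART-Seq2 protocol. The authors deposited a table of estimated counts (genes by cells, with fractions of reads); the submitters' notes name Salmon 0.7.2, bcl2fastq and GRCm38. The deposited log10 values of filtered cells (scaled to a housekeeping panel) served to match cells, to see which were kept and to set classes from Seurat 5.3.0 module scores; the annotation gave animal, day and gate. The authors removed ECs with immune or stromal markers.

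Estimated counts were summed per animal and cell set and rounded. The quasi-likelihood test of edgeR 4.0.16 (filterByExpr, TMM, Benjamini-Hochberg over all genes tested) was the main test, and a gene was called at an adjusted p below 0.05. ECs of the 3 days were in 1 fit; comparisons within EC animals had the animal as a block. TC gates were fitted without one. Alternatives were DESeq2 1.42.0, DESeq2 size factors, no filter, other cell sets, blocks, the sort day, and leaving out each animal or each library's richest cell. Shares at a fixed depth were expected values under sampling of reads without replacement. An estimate within 0.0015 of a whole number was taken as whole. Shared sequence was found with windows of 31 bases in the transcripts of the reference annotation, whose release may differ from the authors'.

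The script was tested on simulated data. The 7 genes and the gene lists were chosen with earlier results of these data known. The 7 genes were to be given in each comparison, and of other lists the genes called or the highest in ECs and TCs. Same-numbered intravascular and extravascular libraries come from the same animals by the annotation, and their deviations from the gate means correlated at 0.25, 0.079, 0.071 and -0.040 for m5 to m8. The genes most like Wls in pattern are not reported here.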

Additional observations from a re-analysis of the deposited data

Results flagged for a closer look

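Of 59 groups of 4 to 10 animals, 22 had an animal whose distance to the next exceeded Dixon's limit; chance gives about 1 group in 20 where values are normal and groups independent, which does not hold here, since many values are at or near 0 and the cell sets share cells. All 22 were the highest animal of their group.

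For Wnt2, m1 stood apart in kept ECs of day 0 (34.6 CPM, next 0), in ECs outside the capillary table (141 CPM) and in large-vessel ECs (1082 CPM), and these values rest on the same cell. Wnt2 was also set apart in m6 inside the table (0.492 CPM) and in gCaps (0.805 CPM), and in m7 among intravascular TCs (2.83 CPM).

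For Wnt4, m6 was highest inside the table (45.991 CPM, next 28.3), in gCaps (47.2 CPM) and in large-vessel ECs (84.0 CPM). The same animal was highest for Wnt9a inside the table (12.4 CPM) and in gCaps (20.1 CPM), and for Wls in aCaps (291 CPM, next 151). Wnt9a further stood apart in aCaps of m7 (0.508 CPM) and in large-vessel ECs of m9 (14.3 CPM), where Wls was also highest (281 CPM).

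Wnt2b stood apart in day 0 ECs of m2 (3.49 CPM), in aCaps of m11 (14.8 CPM) and in extravascular TCs of m8 (3.396 CPM). Rspo3 did so in day 0 ECs of m3 (23.2 CPM, next 4.70), in ECs outside the table of m1 (38.3 CPM) and in large-vessel ECs of m3 (0.436 CPM). Porcn did so in large-vessel ECs of m11 (69.9 CPM, next 33.4).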

How the results depend on the processing

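The number of members called stayed at 0 for the EC days, for cells inside against outside the capillary table and for both TC gate comparisons under every alternative run. For gCaps against aCaps it was 1 with DESeq2 and with its size factors, 2 without the filter on low counts (Wnt9a and Rspo3), 0 without the richest cells and 0 with no replicate block. For large-vessel ECs against gCaps it was 1 without the filter (Wnt2b) and 1 without the richest cells (Porcn, -6.11 ± 1.23 on the log2 scale, edgeR adjusted p = 0.00367). For ECs against TCs it was 2 throughout, except 3 without the richest cells (Rspo3 added, 5.72, adjusted p = 0.0315). Large-vessel libraries hold far fewer cells than gCap libraries, so the removal takes a larger part of them. In each day 1.5 TC library with Rspo3 reads, a single cell held at least 97.1% of them, so the removal nearly empties the TC side. Both added calls therefore follow from the removal and add no support. Leaving out each animal gave 0 to 0 members for the EC days, the capillary table, the large-vessel and the TC comparisons, 1 to 1 for gCaps against aCaps and 2 to 2 for ECs against TCs. Where any other value moved, the cause was not tested.

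Calls over all genes moved by over 1.5 times in some settings. DESeq2 called 360, 475 and 124 genes between EC days where edgeR called 0, 2625 against 229 for the capillary table, 3080 against 1193 for gCaps and aCaps, 6275 against 2064 for large-vessel ECs and 1238 against 330 for the day 1.5 gates. With only kept or only not kept outside cells, edgeR called 2170 and 122 genes, without the block 716 for large-vessel ECs, and for the day 1.5 gates 156 without the filter and 34 with the replicate block.

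Values of members that changed sign were uncalled on both sides. With no replicate block, the log2 fold changes of inside against outside cells became -0.61 (Wnt9a), -0.13 (Rspo3) and -0.73 (Porcn), those of gCaps against aCaps -0.13 (Wnt4) and -0.11 (Wls), and those of large-vessel ECs 0.20 (Wnt4) and 0.67 (Porcn). With the replicate block, ECs against TCs gave 1.54 for Wnt2b, and 2.42 for Wnt4 (adjusted p = 0.00321) and 2.39 for Porcn (adjusted p = 0.0157); neither comparison of TC libraries had a member call changed by the block. For inside against outside cells, Wnt4 became 0.13 without the filter, 0.24 without the richest cells and 1.07 against kept outside cells, and Rspo3 -0.16 against cells not kept. Wls of gCaps against aCaps became -0.0087 with DESeq2 and -0.0086 with its size factors. Without the richest cells, Porcn of gCaps against aCaps became 1.32, Wnt4 of extravascular against intravascular TCs 0.13, and Wnt2b and Wls of ECs against TCs 0.068 and -0.076; Wnt2b became 0.0031 without the filter and 0.025 in all sorted cells. In cells of the capillary table, Wls of day 1.5 against day 0 became 0.032. The sort day was added as a term after the data were seen, as was the comparison of Wnt4 with other fractional genes: it gave -0.14 for Rspo3 of day 3.5 against day 0 (-0.11 with day 0 animals of the same sort day only), and 0.19 for Wls and -0.13 for Porcn of day 3.5 against day 1.5.

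Leaving out each animal turned the sign of these uncalled log2 fold changes, given as lowest to highest. Day 1.5 against day 0 gave -2.04 to 4.48 for Wnt2b, -0.37 to 3.15 for Wnt9a (lowest without m6) and -0.16 to 0.22 for Wls. Day 3.5 against day 0 gave -3.08 to 0.070 for Wnt9a and -0.59 to 0.023 for Wls. Day 3.5 against day 1.5 gave -0.50 to 0.26 for Wnt4 (highest without m6), -0.57 to 0.046 for Wls and -0.98 to 0.74 for Porcn. Inside against outside gave -0.26 to 0.19 for Wnt4, -0.10 to 1.35 for Wnt9a and -0.42 to 0.62 for Porcn. gCaps against aCaps gave -1.24 to 0.10 for Wnt2b, -0.074 to 0.28 for Wnt4 and -0.17 to 0.32 for Wls. Extravascular against intravascular TCs gave -0.73 to 2.26 for Wnt2b, -0.59 to 0.083 for Wnt4, -0.50 to 0.53 for Wnt9a, -1.77 to 0.45 for Rspo3, -0.10 to 0.087 for Wls and -0.30 to 0.52 for Porcn. Latent against extravascular TCs gave -2.56 to 0.012 for Wnt2b, -0.47 to 0.97 for Wnt9a, -0.93 to 1.21 for Rspo3 and -0.0075 to 0.18 for Wls. ECs against TCs gave -1.85 to 1.01 for Wnt2b, -0.18 to 2.68 for Wnt9a and -0.053 to 1.74 for Rspo3, and kept Wnt4 at 1.73 to 2.49 and Porcn at 1.88 to 3.02.

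For the EC days and for latent against extravascular TCs alone, no paired analysis was possible because their libraries come from different animals. The rare genes are limited by the number of cells with reads. The block for the other pathway genes, and the shares of genes without overlap in the capillary table and in aCaps, were added after the data were seen.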
